A study of Mus musculus with 6 samples.

Results

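The transcripts of β-catenin and of the complex that destroys it were examined in libraries labelled as oligodendrocyte precursor cells (OPCs). From OPCs the myelin-forming oligodendrocytes develop. Markers of other cell types were present in these libraries as well, as given below. The 10 genes were chosen by symbol, by a rule that uses no measured value but was set with earlier results of these data known, from the 18211 genes of the deposited table: Ctnnb1, which encodes β-catenin; the scaffolds Axin1, Axin2, Apc, Apc2 and Amer1; the kinases Gsk3a, Gsk3b and Csnk1a1; and Btrc, the receptor subunit of the ubiquitin ligase. All 10 were in the table and all 10 were tested. RNA was sequenced from 3 wildtype libraries and 3 DISC1-Δ3 libraries of C57BL/6 mice. DISC1-Δ3 mice carried NG2-CreERTM and 1 floxed copy of DISC1 exon 3 (fl/+). The wildtype mice were without CreERT, so that carrying the driver and losing the exon cannot be told apart here. Both groups received tamoxifen by gavage on 4 consecutive days, P4 to P7, and cells were taken from the brain at P7 by panning on PDGFRα without culture. The driver is active where the NG2 promoter is, which includes pericytes as well as OPCs. By RT-qPCR the paper reported higher DISC1-Δ3 mRNA in isolated OPCs and not in the other cell types, pericytes among those measured. The labels do not say whether a library came from 1 animal or several. The p-values set the difference between groups against the spread between these libraries. How that spread relates to the spread between animals is not known.

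β-catenin has a role at cell junctions, where it links cadherins to the actin skeleton, and another in the nucleus, where it acts with TCF and LEF factors on Wnt target genes. In the absence of Wnt, Axin and APC hold free β-catenin close to casein kinase 1α and GSK3, the kinases phosphorylate its N-terminus, and β-TrCP passes it to the proteasome. Wnt binding at the cell surface stops this cycle. Axin2 is itself transcribed in response to β-catenin and is widely read as an indicator of the pathway, and in the oligodendrocyte lineage Wnt signaling is known for holding back differentiation. The libraries measure transcripts. They hold no information on phosphorylation, protein level or localization.

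Library totals ran from 13716619 to 16417219 rounded reads, so that 1 read was worth 0.0609 to 0.0729 CPM (counts scaled to the library total). Replicates differed by more than sampling noise, since chi-square divided by its degrees of freedom lay between 1.8 and 5.39 for pairs of one group, and the highest values were those of DISC1-Δ3 replicate 3 against the other DISC1-Δ3 libraries. Disc1, the targeted gene, was at 3.51, 3.34 and 3.81 RPKM in wildtype and 2.86, 2.44 and 2.85 RPKM in DISC1-Δ3 libraries (log2 fold change -0.45, edgeR quasi-likelihood adjusted p = 0.000528), in values per gene that do not resolve exon 3. Markers of several cell types were present. The summed RPKM (reads scaled to transcript length and to library total) of 10 OPC markers was 554 to 575 in wildtype and 716 to 745 in DISC1-Δ3 libraries, while that of 10 microglia markers was 14655 to 14959 and 10226 to 10640. In wildtype libraries the OPC receptor Pdgfra stood at 17.2 to 18.1 RPKM and the microglial complement gene C1qa at 3204 to 3454 RPKM, so the libraries are not of OPCs alone. At an adjusted p under 0.05 in the edgeR fit, 20.4% of all tested genes rose and 19.5% fell (median log2 fold change 0.0075). Of the OPC markers 7 rose and 1 fell (median log2 fold change 0.47), and all 10 microglia markers fell (median -0.49). Mature oligodendrocyte markers fell in 6 of 9 (median -0.45, summed RPKM 2517 to 2550 against 2312 to 2347). Astrocyte markers rose in 2 and fell in 6 of 10 (median -0.18, 2054 to 2091 against 1981 to 1995). Neuron markers rose in 7 of 10 (median 0.30, 363 to 367 against 435 to 455), endothelial markers in 6 of 10 (median 0.22, 167 to 177 against 222 to 224), and pericyte markers in 8 of 10 (median 0.34, 171 to 178 against 230 to 239). No marker was at 0 in all 6 libraries. In such bulk samples fewer cells of a type and less RNA per cell cannot be told apart.

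The 250 bases before the start site are shown for the members with the clearest rises, Axin2 and Ctnnb1, and for Gsk3a, as the member with a match to a TCF/LEF motif before its only listed start. The sequences are from RefSeq (GRCm38.p6), from which 9 windows of 5 members were used here. They are printed 5′ to 3′ on the strand of the gene, and capitals mark a motif match. Axin2 lies on chromosome 11, plus strand, and its stretch spans chr11:108920099-108920348. That stretch is inside the listed span of the gene, which begins at chr11:108917828. The bases before that 5′ end were not searched. Ctnnb1 lies on chromosome 9, plus strand, and the stretch before the first of its listed starts spans chr9:120933150-120933399. Gsk3a lies on chromosome 7, minus strand, with a stretch at chr7:25237852-25238101.
Axin2: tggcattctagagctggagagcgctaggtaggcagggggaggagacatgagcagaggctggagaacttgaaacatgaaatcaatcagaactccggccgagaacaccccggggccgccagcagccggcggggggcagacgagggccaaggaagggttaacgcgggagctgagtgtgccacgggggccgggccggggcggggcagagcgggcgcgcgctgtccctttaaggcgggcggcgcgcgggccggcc
Ctnnb1: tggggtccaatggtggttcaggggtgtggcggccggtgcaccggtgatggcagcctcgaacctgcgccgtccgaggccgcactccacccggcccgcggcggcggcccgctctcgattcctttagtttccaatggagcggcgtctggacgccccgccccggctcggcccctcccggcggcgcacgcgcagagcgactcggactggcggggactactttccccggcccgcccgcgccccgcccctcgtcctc
Gsk3a: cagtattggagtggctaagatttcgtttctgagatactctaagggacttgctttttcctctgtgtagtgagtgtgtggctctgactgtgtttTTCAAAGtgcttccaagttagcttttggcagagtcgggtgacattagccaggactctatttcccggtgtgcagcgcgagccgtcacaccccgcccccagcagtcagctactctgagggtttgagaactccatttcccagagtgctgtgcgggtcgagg
Motifs were searched on both strands, over 250 bases before and 50 after each start. Of 32851 promoter windows of that length, CTTTGAT was in 3.73%, and CTTTGAA in 5.14%. CTTTGTT was in 5.85% of them, while CTTTGTA was in 3.63%. The motifs share their first letters and cannot match at the same place on a strand, and 16.9% of windows held at least 1 of them. Among the 9 windows of members 2 held a match, that of Gsk3a (CTTTGAA on the opposite strand) and 1 of the 4 windows of Apc2 (CTTTGTT). No match was found in the windows of Axin2, Ctnnb1 and Gsk3b. In G and C content the Axin2 window and the first of Ctnnb1 stood at percentiles 90.4 and 96.4 of all windows. No match says only that these letters are absent from this window.

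In the comparison of DISC1-Δ3 with wildtype, 5 of the 10 members rose and 1 fell at an adjusted p under 0.05 (edgeR's quasi-likelihood test, Benjamini-Hochberg adjustment over 13792 tested genes). Of all tested genes, 39.9% passed, made up of 20.4% that rose and 19.5% that fell. The members that rose were Axin2, Ctnnb1, Gsk3a, Apc2 and Csnk1a1, and the member that fell was Apc. Axin1, Gsk3b, Btrc and Amer1 did not pass. The count of rises was 2 without DISC1-Δ3 replicate 2, 3 without wildtype replicate 2 or 3, and 6 in limma and with RPKM sums as scaling. The count of falls was 0 without wildtype replicate 1, with DESeq2, in limma and with RPKM sums. The median log2 fold change of the members was 0.13, beside 0.0075 for all tested genes. In RPKM, 6 members were higher in every DISC1-Δ3 library than in every wildtype library, as were 35.9% of tested genes, and 0 were lower in every one, against 16.1%. The changes differed widely in size. Axin2 rose 5.03-fold and Ctnnb1 1.23-fold, while the other 3 rises were of 1.10- to 1.13-fold.

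**Figure D1:**
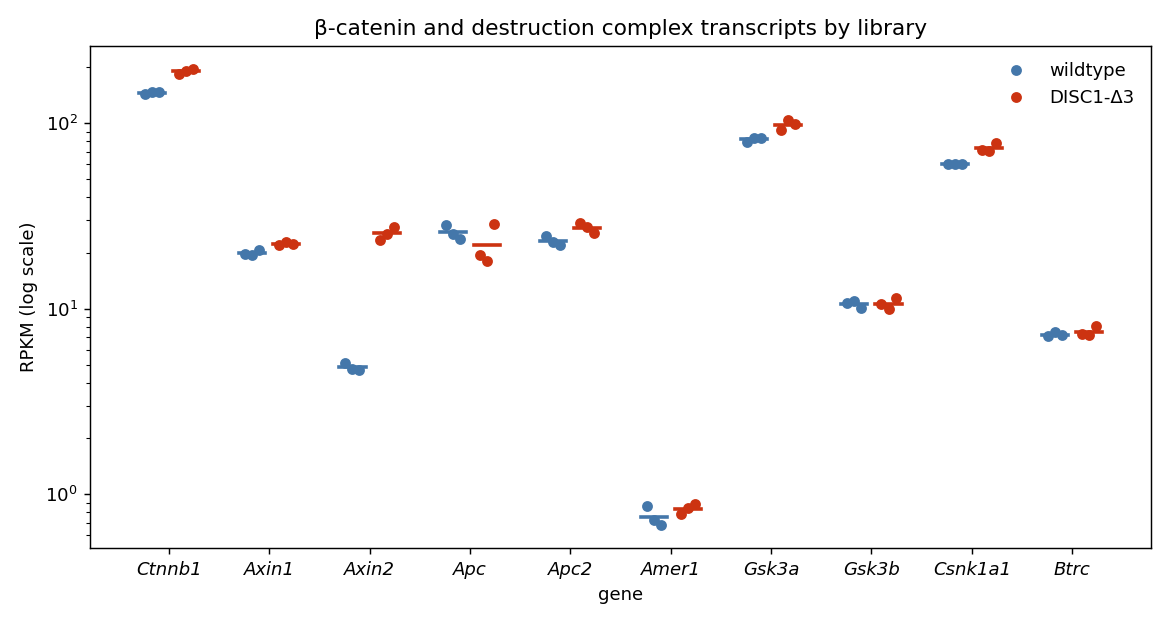
RPKM of the 10 genes (log scale) in each of the 3 wildtype (blue) and 3 DISC1-Δ3 (red) libraries, with bars at the group means. Axin2 moves from 4.83 to 25.5 RPKM, whereas the 3 DISC1-Δ3 values of Apc lie on both sides of the wildtype values.

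Ctnnb1 (gene ID 12387), the substrate of the complex, had the highest level of the 10. Its RPKM was 144.05, 147.44 and 146.26 in wildtype replicates 1 to 3, against 184.67, 190.79 and 196.18 in the same replicates of DISC1-Δ3. Every DISC1-Δ3 library was above every wildtype library. The fit put the change at 0.30 on the log2 scale (SE 0.040, edgeR quasi-likelihood adjusted p = 8.77e-06), and it ran from 0.28 to 0.39 over 15 alternatives, past the threshold in all 15. The size of this rise was within the range of the cell type markers: 22 of 69 marker genes, among them 7 of the 10 OPC markers, rose by more, and the part of the cell types in the result was not tested. Of the exonic bases of Ctnnb1, 14.6% are shared with Ulk4 on the opposite strand. The sources used here do not say that reads were counted by strand. Ulk4 had 2.80 ± 0.299 RPKM (SD, n = 3) in wildtype and did not pass the threshold (log2 fold change -0.16, adjusted p = 0.285 from the same edgeR test).

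Axin2 (gene ID 12006), the scaffold that β-catenin induces, showed the largest change of the 10. It had 5.11, 4.73 and 4.65 RPKM in the wildtype libraries, against 23.56, 25.34 and 27.55 RPKM in DISC1-Δ3, from 283, 308 and 308 reads against 1362, 1643 and 1799. The groups were far apart, with the lowest DISC1-Δ3 value above the highest wildtype value. Its fitted fold had a 95% interval of 4.53 to 5.58. Among tested genes 120 (0.87%), Axin2 itself included, passed the threshold with a log2 fold change at or above its own of 2.33 (SE 0.071, edgeR quasi-likelihood adjusted p = 4.09e-14). The value stayed between 2.18 and 2.42 over 15 alternatives. The log2 fold changes of the 69 marker genes ran from -0.80 to 1.02, below that of Axin2, and the part of the cell types in the result was not tested. An antisense gene, Gm11670, covers 3.8% of the exonic bases of Axin2 and had no row of its own.

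Axin1 (gene ID 12005), the Axin gene that is expressed without Wnt, had 19.66, 19.45 and 20.64 RPKM in wildtype and 21.91, 22.85 and 22.19 RPKM in DISC1-Δ3 libraries. The DISC1-Δ3 values were all higher, by little. Its change of 0.11 on the log2 scale (SE 0.054, 95% interval 0.00 to 0.23, edgeR quasi-likelihood adjusted p = 0.103) did not pass. It passed when RPKM set the scale, at 0.20 with RPKM sums (adjusted p = 0.00648), and its adjusted p ran from there to 0.352 over the alternatives.

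Axin1 and Axin2 can substitute for each other in the complex, and RPKM, which is per length, allows their levels to be added. Of the summed Axin RPKM, Axin2 made up 20.6%, 19.6% and 18.4% in the wildtype libraries, and 51.8%, 52.6% and 55.4% in the DISC1-Δ3 libraries. Axin2 was thus the lesser part of Axin transcripts in each wildtype library and the greater part in each DISC1-Δ3 library. Which cells the reads of either gene came from is not known, and the part of the cell types was not tested. The difference in the Axin2 share was 33.7 percentage points, and between 32.7 and 34.5 with any 1 library left out. The summed level was 24.7 ± 0.555 RPKM in wildtype and 47.8 ± 2.16 RPKM in DISC1-Δ3 libraries (SD, n = 3 each), with a ratio of 1.93. Both the share and the sum separated the groups completely, for which a two-sided exact permutation test gives p = 0.1, the smallest that 3 against 3 libraries allow, and 0.16 after Benjamini-Hochberg adjustment over the 8 share and sum tests made here. Over the same libraries Ctnnb1 rose by a ratio of 1.31 in RPKM.

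**Figure D2:**
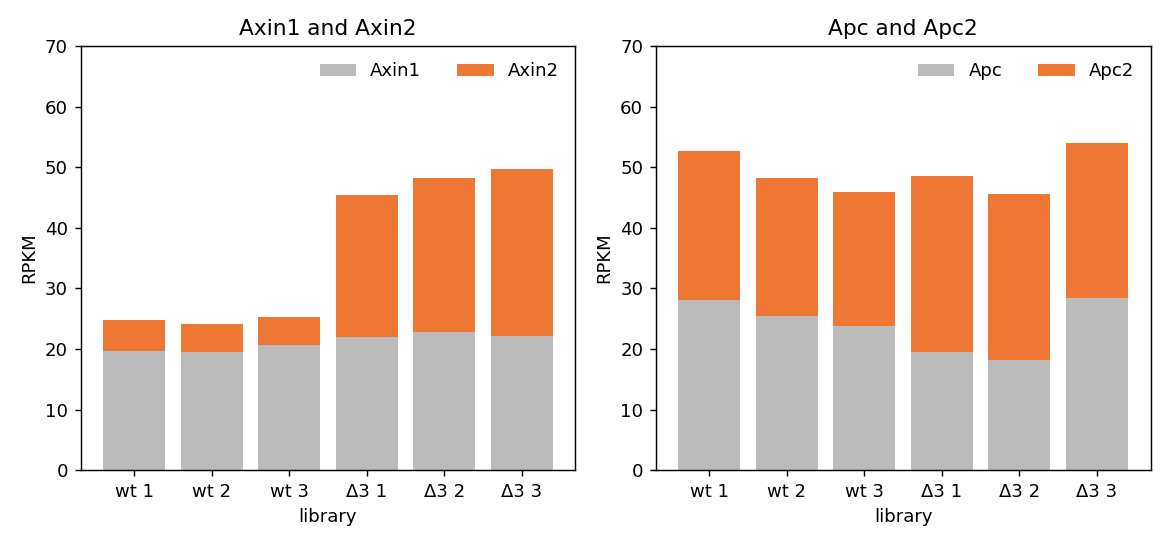
RPKM of Axin1 and Axin2 (left) and of Apc and Apc2 (right), stacked for each of the 6 libraries (wt, wildtype; Δ3, DISC1-Δ3). The Axin sum is 24.2 to 25.3 in wildtype and 45.5 to 49.7 in DISC1-Δ3, most of the difference lying in the Axin2 part, while the sums of Apc and Apc2 overlap between the groups.

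Apc (gene ID 11789), the large scaffold whose loss stabilizes β-catenin, was at 28.08, 25.39 and 23.79 RPKM in the wildtype libraries, and at 19.57, 18.13 and 28.49 RPKM in DISC1-Δ3 replicates 1 to 3. DISC1-Δ3 replicates 1 and 2 were below every wildtype library, and replicate 3 was above every one. Over all libraries the change was -0.34 on the log2 scale (SE 0.10, edgeR quasi-likelihood adjusted p = 0.0126). Without DISC1-Δ3 replicate 3 it was -0.55 (adjusted p = 4.24e-10). Without wildtype replicate 1 it was -0.28 (adjusted p = 0.0906), and with DESeq2 it was -0.35 (adjusted p = 0.148). It was -0.25 with RPKM sums as scaling (adjusted p = 0.0944), and in limma -0.24 on log2(RPKM + 1) and -0.25 on log2(RPKM + 0.1) (adjusted p = 0.167 and 0.17). The fall did not pass in these 5 fits and passed in the other 10 alternatives.

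Transcript length moved with these values. By the length implied by reads and RPKM, Apc is at percentile 99.49 of tested genes. The median log2 CPM of the longest 5% of tested genes, relative to the mean of the 6 libraries, was 0.097, 0.038 and -0.013 in wildtype replicates 1 to 3, and in those of DISC1-Δ3 it was -0.094, -0.134 and 0.12. On that scale the wildtype values of Apc were 0.30, 0.17 and 0.08, and its DISC1-Δ3 values were -0.33, -0.39 and 0.18. Both were highest in wildtype replicate 1 and DISC1-Δ3 replicate 3, and lowest in DISC1-Δ3 replicates 1 and 2. The difference of replicate 3 from the mean of DISC1-Δ3 replicates 1 and 2 was 0.54 for Apc and 0.19 at the median of the longest 5%, within which Apc was above 87.4% of genes. With each library's trend with length taken out, a choice made after seeing the data, the log2 fold change of Apc was -0.26 (edgeR quasi-likelihood adjusted p = 0.0015). The part of length in the call was not tested.

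**Figure D3:**
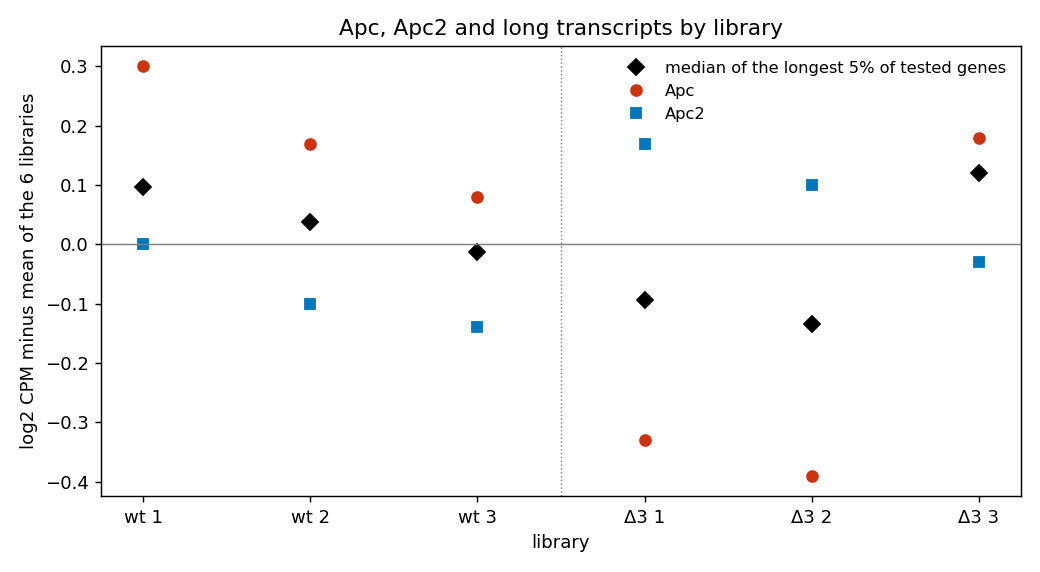
log2 CPM of Apc (red) and Apc2 (blue) and the median of the longest 5% of tested genes (black), each relative to its mean over the 6 libraries (wt, wildtype; Δ3, DISC1-Δ3; points are single libraries). Apc and the long transcripts are highest in wt 1 and Δ3 3, and Apc2, another long transcript, is highest in Δ3 1.

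Apc2 (gene ID 23805), a relative of Apc with a strong expression in neurons, had 24.57, 22.79 and 22.14 RPKM in wildtype and 29.01, 27.50 and 25.54 RPKM in DISC1-Δ3 libraries. The groups did not overlap, although DISC1-Δ3 replicate 3 was close to wildtype replicate 1. It rose by 0.16 on the log2 scale (SE 0.053, edgeR quasi-likelihood adjusted p = 0.0217). That call was lost without DISC1-Δ3 replicate 1 (0.10, adjusted p = 0.193), DISC1-Δ3 replicate 2 (adjusted p = 0.107), wildtype replicate 2 (adjusted p = 0.0897) or wildtype replicate 3 (adjusted p = 0.117). Neuron markers rose in 7 of 10 beside it (median log2 fold change of all 10 markers 0.30), and their part in this value was not tested. Apc2 is at percentile 98.1 of tested genes in length. Its log2 CPM, again relative to the 6 libraries, was 0.17, 0.10 and -0.03 in the replicates of DISC1-Δ3, lowest in replicate 3, where that of the long transcripts was highest. Its share of the summed Apc and Apc2 RPKM was 46.7% to 48.2% in wildtype against 59.7%, 60.3% and 47.3% in the replicates of DISC1-Δ3, and the groups overlapped (two-sided exact permutation p = 0.3, adjusted 0.343). The sum was 48.9 ± 3.42 and 49.4 ± 4.26 RPKM (SD, n = 3 each; exact permutation p = 0.8).

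Amer1 (gene ID 72345), which brings Apc and Axin to the plasma membrane, was the lowest of the 10, at 0.86, 0.73 and 0.68 RPKM in wildtype and 0.78, 0.84 and 0.89 RPKM in DISC1-Δ3. These came from 92 to 120 reads, and the groups overlapped. Its fold had a 95% interval of 0.854 to 1.30, which includes no change (edgeR quasi-likelihood adjusted p = 0.715).

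Of the kinases, Csnk1a1 (gene ID 93687) encodes casein kinase 1α, which primes β-catenin for GSK3. It had 60.57, 60.18 and 60.39 RPKM in wildtype and 71.66, 70.88 and 77.96 RPKM in DISC1-Δ3 libraries. All DISC1-Δ3 values were higher, and the wildtype values were nearly equal. The fit on reads put the rise at 0.14 on the log2 scale (SE 0.046, edgeR quasi-likelihood adjusted p = 0.0239), and the RPKM means at 0.28. Over all members the fitted log2 fold change differed from that of the RPKM means by -0.08 on average. In addition, the length by which the authors' RPKM divides changed for this gene. It was 0.957 times as long in DISC1-Δ3 as in wildtype libraries, against 0.978 to 1.02 times for the other members. Csnk1a1 lost the threshold in 5 of the 6 fits that left out 1 library, at adjusted p from 0.0521 to 0.0827, and passed narrowly without DISC1-Δ3 replicate 1 (adjusted p = 0.0495).

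Gsk3a (gene ID 606496) and Gsk3b (gene ID 56637) encode the paralogous kinases that mark β-catenin for ubiquitination. Gsk3a had 78.76, 83.46 and 82.67 RPKM in wildtype and 92.00, 103.43 and 98.27 RPKM in DISC1-Δ3 libraries, without overlap. It rose by 0.18 on the log2 scale (SE 0.049, edgeR quasi-likelihood adjusted p = 0.00882), but not without DISC1-Δ3 replicate 2 (0.12, adjusted p = 0.13). An antisense gene, 9130221H12Rik, shares 28.3% of the exonic bases of Gsk3a and had no row of its own, so reads from both cannot be told apart. Gsk3b had 10.79, 10.95 and 10.03 RPKM in wildtype and 10.60, 9.93 and 11.42 RPKM in DISC1-Δ3 libraries. Its groups overlapped, and the log2 fold change of -0.07 (95% interval -0.20 to 0.05, edgeR quasi-likelihood adjusted p = 0.347) did not pass under any of 15 alternatives. With RPKM sums as scaling and in limma it was 0.01.

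In wildtype libraries Gsk3b made up 11.5% ± 0.622 of the summed Gsk3 RPKM and in DISC1-Δ3 libraries 9.83% ± 0.931 (SD, n = 3 each). Gsk3a was the more abundant transcript per length in all 6 libraries. The difference of -1.66 percentage points became -3.77 when shares were taken from reads not divided by length. The shares did not overlap between groups, with 10.8% as the lowest in wildtype and 10.4% as the highest in DISC1-Δ3, and the exact permutation test gave p = 0.1 (two-sided, 0.16 adjusted). The summed Gsk3 level was 92.2 ± 2.47 RPKM in wildtype and 109 ± 5.47 RPKM in DISC1-Δ3 libraries (SD, n = 3 each).

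Btrc (gene ID 12234), the F-box protein β-TrCP that recognizes phosphorylated β-catenin, had 7.09, 7.5 and 7.18 RPKM in wildtype and 7.34, 7.22 and 8.02 RPKM in DISC1-Δ3 libraries. The groups overlapped. Its fold had a 95% interval of 0.887 to 1.09 (edgeR quasi-likelihood adjusted p = 0.82). Its paralog Fbxw11, which serves the same ligase, was the more abundant per length at 29.0 ± 1.04 and 31.6 ± 1.47 RPKM (SD, n = 3 each), and did not pass either (log2 fold change 0.05, adjusted p = 0.492 from the same test). Btrc made up 20.0% ± 1.05 of the pair in wildtype and 19.2% ± 0.188 in DISC1-Δ3 libraries, and the shares overlapped (exact permutation p = 0.3, adjusted 0.343).

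**Figure D4:**
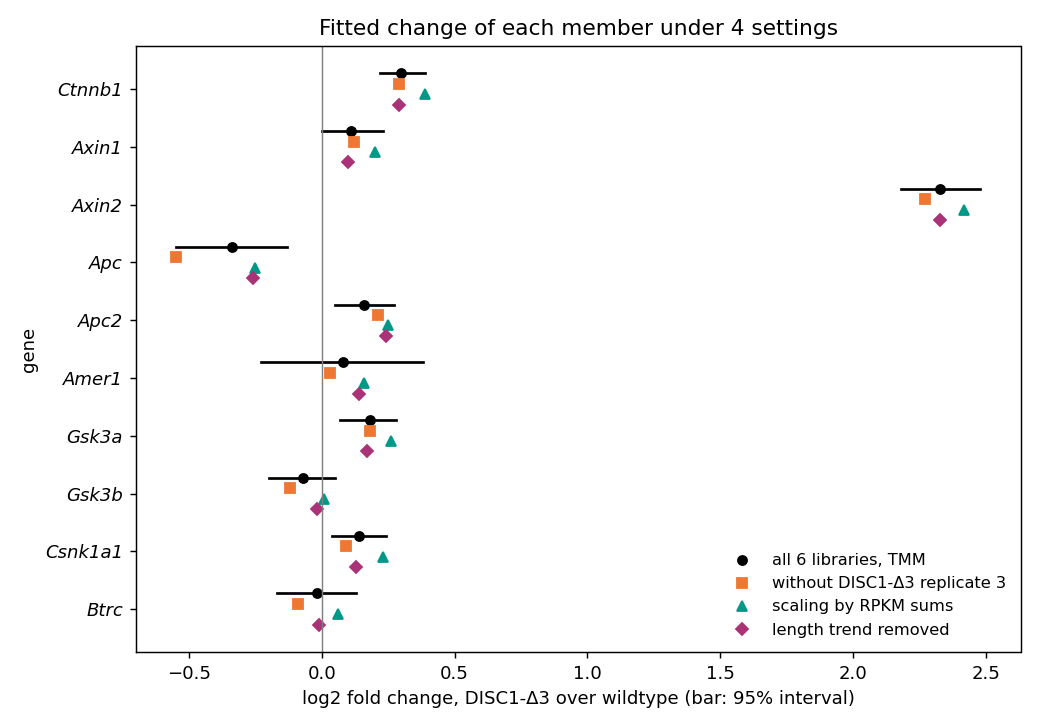
Fitted log2 fold change of each gene, DISC1-Δ3 over wildtype, with all 6 libraries and TMM scaling (black, bar: 95% interval), without DISC1-Δ3 replicate 3 (orange), with RPKM sums as scaling (green) and with the length trend removed (purple). Axin2 lies at 2.27 to 2.42 and Ctnnb1 at 0.29 to 0.39 in these settings, Apc runs from -0.55 to -0.25, and Gsk3b and Btrc lie on both sides of 0.

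Per length, the wildtype order was Ctnnb1, Gsk3a, Csnk1a1, Apc, Apc2, Axin1, Gsk3b, Btrc, Axin2 and Amer1. Only Apc and Apc2 were neighbours whose wildtype values overlapped. In DISC1-Δ3 libraries Axin2 moved from rank 9 to rank 5, between Apc2 and Axin1, and overlapped with Apc2. Axin1 and Apc overlapped there as well, because of the spread of Apc. The 3 highest kept their order. The level of Ctnnb1 was 146 ± 1.72 RPKM against 24.7 for both Axin genes together in wildtype, and 191 ± 5.76 RPKM against 47.8 in DISC1-Δ3 libraries.

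Other genes that act on β-catenin were counted in lists written from general knowledge, in the same fit. The counts stand beside 20.4% of all tested genes that rose and 19.5% that fell, with a median log2 fold change of 0.0075. Of 7 tested genes of the SCF ubiquitin ligase, the paralog Fbxw11 and partners of Btrc, 1 rose and 0 fell, with a median log2 fold change of 0.05. The gene that rose was Skp1a, the adaptor between F-box protein and cullin, at 80.9 ± 5.01 and 96.5 ± 4.99 RPKM (SD, n = 3 each; log2 fold change 0.17, adjusted p = 0.0162 from the edgeR fit). Of 9 genes of Axin turnover and other ligases or deubiquitinases, 1 rose and 2 fell (median -0.08). Tnks2, a tankyrase that marks Axin for degradation, fell by 0.24 on the log2 scale (edgeR quasi-likelihood adjusted p = 0.00129), and Siah1a, a ubiquitin ligase, rose by 0.27 (adjusted p = 0.0451). Of 8 other casein kinase genes, 0 rose and 1 fell, Csnk1e, which has a role upstream with Dishevelled (log2 fold change -0.13, adjusted p = 0.0185), and the median was 0.04.

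The phosphatases that oppose the kinases were examined next. Of 13 tested genes of PP2A and PP1, 6 rose and 0 fell, with a median of 0.14, where 20.4% of all tested genes rose and 19.5% fell. The largest rise was that of Ppp2r5b, a regulatory B56 subunit of PP2A, at 27.8 ± 0.689 and 37.3 ± 1.97 RPKM (SD, n = 3 each; log2 fold change 0.34, adjusted p = 0.000112 from the edgeR fit). Among 7 Amer relatives and binding inhibitors of GSK3 or β-catenin, 2 rose and 0 fell (median 0.14). Amer3, a relative of Amer1, rose from 1.04 ± 0.0569 to 1.77 ± 0.137 RPKM (SD, n = 3 each; log2 fold change 0.68, adjusted p = 0.00127). Per length it was above Amer1 in both groups.

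Where 20.4% of all tested genes rose and 19.5% fell, 6 of 11 tested catenins and cadherins, genes of cell adhesion, rose and 1 fell. The median of these 11 was 0.27. Not all of them bind β-catenin: Cdh13, among those that rose, encodes a cadherin without a catenin-binding tail, and Ctnnd1 and Ctnnd2, which did not pass, encode p120-type catenins. Cdh1, which encodes E-cadherin, was not on the list and was met through its likeness in profile to Axin2. It had 0.12, 0.09 and 0.04 RPKM in wildtype and 3.45, 3.73 and 4.08 RPKM in DISC1-Δ3 libraries. The RPKM filter was thus passed through the DISC1-Δ3 libraries alone, and the log2 fold change of 5.43 starts from values near 0. Cdh4, a classical cadherin also called R-cadherin, had 6.64, 6.76 and 6.00 RPKM in wildtype and 14.34, 14.45 and 13.24 RPKM in DISC1-Δ3 libraries, a rise of 1.04 on the log2 scale (SE 0.065, edgeR quasi-likelihood adjusted p = 6.96e-10). Cdh10, another classical cadherin, fell by 0.29 on the log2 scale (adjusted p = 0.0253 from the same test). Beside these genes 7 of 10 OPC, 7 of 10 neuron, 6 of 10 endothelial and 8 of 10 pericyte markers rose, and their part was not tested.

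**Figure D5:**
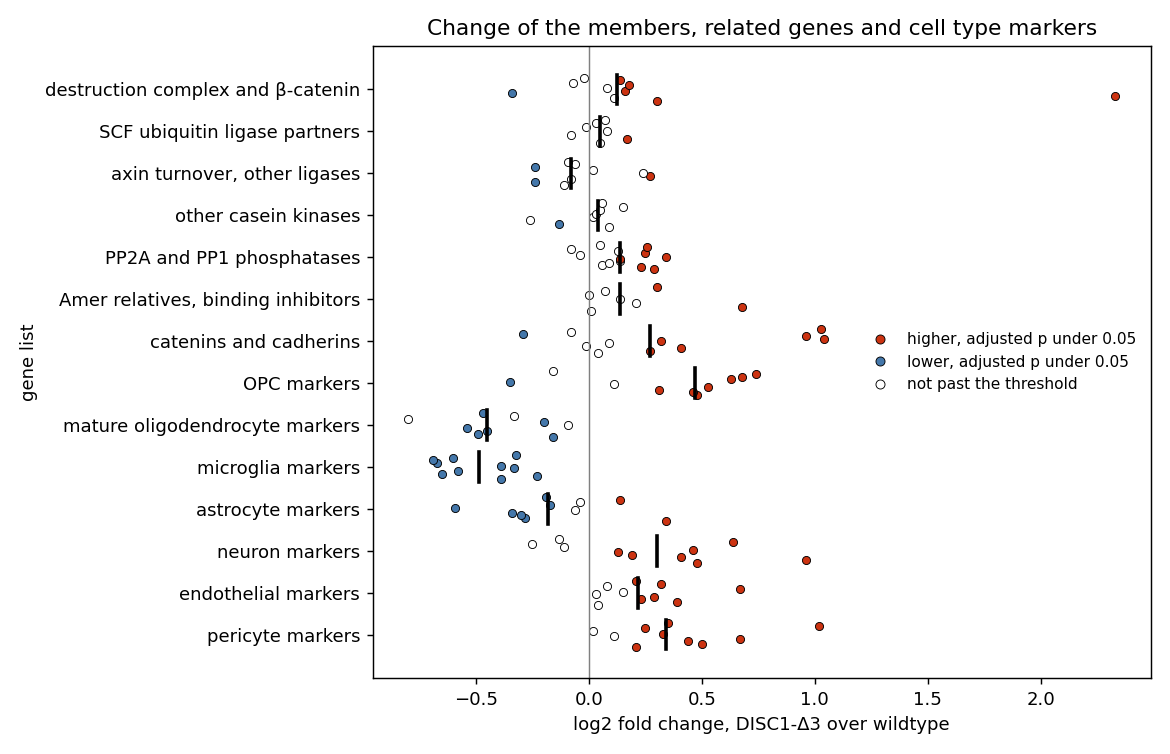
log2 fold change, DISC1-Δ3 over wildtype, of each gene of the destruction complex, of 6 lists of related genes and of 7 lists of cell type markers (red, rose; blue, fell; open, adjusted p not under 0.05; black bars, list medians). Axin2 at 2.33 lies to the right of every other gene shown, and all 10 microglia markers lie left of 0.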

How the data were processed

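RNA of 6 libraries, 3 wildtype and 3 DISC1-Δ3, was selected on oligo(dT) and sequenced as single-end reads on a BGISEQ-500, per the labels. The authors deposited 1 table, which pairs each library's expected count per gene with its RPKM. Of expected counts above 0, 90.2% are whole. The authors' RPKM divides reads by library total and a transcript length, and is given to 2 decimals. The submitters' processing notes name Bowtie2 2.2.5 and mm10; the counting tool is not given in the sources used here, and the paper names DESeq2. The authors' 4 columns of group averages were left out.

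Expected counts were rounded. The 13792 genes that reached an RPKM of 0.5 in 3 libraries or more were fitted with edgeR 4.0.16 (quasi-likelihood, TMM scaling, R 4.3.3) with a term for genotype alone, and two-sided p-values were adjusted by Benjamini-Hochberg over them. Shares of paralogs were compared by exact permutation. The members and lists were chosen with earlier results of these data known. All members, Fbxw11, Disc1 and the largest rise and fall past the threshold of each list of related genes are named by rule. So are the 3 genes nearest in profile to Axin2 and to Ctnnb1. Ulk4 and antisense genes were named for overlap with members on GENCODE (GRCm38). Pdgfra, C1qa, Olig1, Aif1, Cdh13, Ctnnd1 and Ctnnd2 were named as examples after their values were seen. DESeq2 1.42.0, limma 3.58.1 on log2 RPKM, other filters and scalings, the replicate number as a block, each library left out and, added later, removal of the length trend were alternatives. The edgeR, DESeq2 and limma fits were tested on simulated data. Intervals come from the fit across libraries.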

Additional observations from a re-analysis of the deposited data

How the results depend on the processing

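Axin2 and Ctnnb1 passed the threshold with the same direction under all 15 alternatives. The count of members that rose was 5, 6 in limma and with RPKM sums, and ran from 2 to 4 with 1 library left out, with 2 lost calls or more without DISC1-Δ3 replicate 2 (2 members), wildtype replicate 2 (3) and wildtype replicate 3 (3). The count that fell was 1, and 0 with DESeq2, with limma on log2(RPKM + 1) or log2(RPKM + 0.1), with RPKM sums as scaling and, among the fits with 1 library left out (0 to 1), without wildtype replicate 1. With RPKM sums 70.1% of 5849 called genes rose, against 51.1% of 5498, and the median of all genes was 0.094. Gsk3b turned to 0.01 in both limma fits and with RPKM sums, and Btrc from -0.02 to 0.05, 0.05 and 0.06; neither was past the threshold. The difference in the Gsk3b share of Gsk3 was -1.66 percentage points in DISC1-Δ3 minus wildtype, and -3.77 from reads not divided by length. Same-numbered libraries did not deviate together (correlations 0.041, 0.034 and -0.014 over genes; 4 of 6 libraries correlated best with their own number), so the numbers were not taken as pairs. With a replicate block 5 members rose, 1 fell and 5429 genes were called. The block cannot change the share differences, since each number occurs once in both groups. Under the alternatives 125 values of members kept direction and side of the threshold, 15 lost the threshold, 3 gained it and 6 turned direction. Amer1 could not be fitted with a filter of RPKM 1. Depth limits Amer1 most, at 92 to 120 reads. The causes of these shifts were not tested.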

Other observations

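The tested genes whose profile over the 6 libraries lay nearest to that of Axin2, by root-mean-square distance of centred log2(RPKM + 1), were Cdh1, Rasl11b and Prkcq, at distances of 0.031, 0.0678 and 0.0794. Cdh1, which encodes E-cadherin, was at 0.12, 0.09 and 0.04 RPKM in wildtype and 3.45, 3.73 and 4.08 RPKM in DISC1-Δ3 libraries. It thus passed the RPKM filter through the DISC1-Δ3 libraries alone. Its log2 fold change of 5.43 in the fit on reads starts from values near 0. It is near Axin2 only on a scale with a pseudocount of 1. Rasl11b, a small GTPase gene, rose from 3.72 ± 0.372 to 21.9 ± 1.66 RPKM (SD, n = 3 each), and Prkcq, which encodes protein kinase C theta, from 5.76 ± 0.404 to 31.7 ± 1.06 RPKM (SD, n = 3 each). Their log2 fold changes were 2.48 and 2.32, beside the 2.33 of Axin2. The distance includes the difference between groups, so this likeness follows from how the genes were chosen. Nearest to Ctnnb1 were Otud1, Ppp2ca and Arl2bp, at distances of 0.0112, 0.0138 and 0.0162 and with log2 fold changes of 0.32, 0.29 and 0.28. Ppp2ca, the catalytic subunit of PP2A, was also on the list of phosphatases, and rose from 127 ± 1.87 to 164 ± 4.55 RPKM (SD, n = 3 each).

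DISC1-Δ3 replicate 3 differed from replicates 1 and 2 by transcript length. The median log2 CPM difference was -0.05 in the shortest 25% of tested genes, -0.02 and 0.01 in the next bins of 25%, 0.07 between 75% and 95%, and 0.19 in the longest 5% (690 genes).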
